A study of Homo sapiens with 12 samples.

Results

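The comparison asked how the transcriptome of A549 cells expressing an AHR with the S489A change, which removes a phosphorylated serine (the SA line), differed from that of A549 cells with the empty vector (the V line). A549 is an established human lung adenocarcinoma cell line. The comparison used 6 of the 12 RNA-seq libraries of the series, 3 of SA and 3 of V, and all 14913 genes that passed a count filter, of 60623 genes in the table. Both lines were made from A549 cells infected with a lentivirus of the pLV-EF1a-IRES-Hygro backbone (an EF1a promoter and a hygromycin resistance gene) and selected with hygromycin, and both kept their endogenous AHR. The SA virus also carried the HA-tagged full-length AHR reading frame with the S489A change. The other 6 libraries came from lines with wild-type HA-AHR (WT) or with HA-AHR carrying S489D (SD), made in the same way. Each construct was represented by 1 stable line and 3 biological replicates of it, so an effect of the construct and a difference between 2 lines cannot be told apart, and the p-values measure the spread between these replicates. The labels name no AHR ligand.

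AHR, the aryl hydrocarbon receptor, is a basic helix-loop-helix PAS transcription factor that waits in the cytoplasm with HSP90 and its co-chaperones. On binding a ligand it enters the nucleus, pairs with ARNT and binds DNA elements with the core GCGTG, and its best known targets are CYP1A1, CYP1B1, TIPARP and AHRR. PLK1 is a mitotic serine/threonine kinase that the study named as the kinase of this serine, where alanine removes the phosphate acceptor and aspartate carries a negative charge. In lung cells AHR is known for its part in the response to smoke and dioxins.

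The residue that separates the SA construct from wild-type AHR lies in the large penultimate coding exon of the gene. The reference codon of this serine occupies chr7:17339290-17339292 (GRCh38, plus strand), in exon 10 of 11 of the AHR transcript ENST00000242057.9, which encodes 848 residues. The reference bases of this codon with 10 codons on each side, at chr7:17339260-17339322, are shown because they hold the site that the constructs change, with the serine codon in capitals.
AHR serine codon changed by S489A: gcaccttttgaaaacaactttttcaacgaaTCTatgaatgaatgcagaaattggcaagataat
The deposited values are counts per gene, so the altered codon itself was not read in any library.

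Library totals were 9378152 to 9775608 counts in V and 9986096 to 11765576 counts in SA, and 3 counts corresponded to 0.255 to 0.320 CPM in these 6 libraries. Levels are given as counts scaled to a common library size after TMM normalization over all 12 libraries (CPM), and are not corrected for gene length, so they are compared between libraries and not between genes. The epithelial keratins KRT7, KRT8 and KRT18 were abundant in all 6 libraries, whereas the lung lineage markers NKX2-1, SFTPB and SFTPC reached at most 0.258 CPM. Of the other markers listed, EPCAM was at 0.600 to 1.74 CPM, KRT19 at up to 0.512 CPM and the alveolar marker NAPSA at 3.06 to 4.501 CPM, in these 6 libraries. Of 10 immune cell markers, CD3E and MS4A1 were at 0 in all 12 libraries, and the list summed to 35.7 to 44.003 CPM in V and 50.3 to 53.4 CPM in SA, nearly all of it from CD68 and CD14. Of 10 fibroblast and endothelial markers, DCN, VWF and KDR were at 0 in all 12 libraries, and the list summed to 1.26 to 2.35 CPM in V and 1.46 to 1.95 CPM in SA. CD68, a lysosomal glycoprotein, was the 1 called member of the immune list, of 3 tested (26.7, 28.4 and 21.7 CPM in V and 30.1, 31.9 and 36.9 CPM in SA; log2 fold change 0.36 ± 0.10, adjusted p = 0.032). Its call was lost without SA replicate 2, SA replicate 3, V replicate 1 or V replicate 3. Of the 10 fibroblast and endothelial markers, THY1 alone passed the count filter and was not called (1.64, 1.17 and 0.632 CPM in V and 1.10, 0.687 and 1.06 CPM in SA), and PDGFRB did not exceed 0.687 CPM in these 6 libraries. In such bulk RNA, a change in the share of cells of a kind and a change in RNA per cell cannot be told apart.

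AHR itself was the check of the labels, and it was higher in every SA library than in every V library. The gene measured 67.0, 65.7 and 74.4 CPM in V and 219, 221 and 231 CPM in SA, a 3.22-fold difference (log2 fold change 1.69 ± 0.06, adjusted p = 9.41e-18). A second annotated gene, ENSG00000283321 (chr7:17299295-17467234), shares 2373 of its 3523 exonic bases with AHR on the same strand, and reads of the shared bases cannot be assigned to one of the pair with certainty. This gene was at 0 counts in all 3 V libraries and at 151, 188 and 171 CPM in SA. The mean level assigned to it in SA was 532-fold above the limit of 3 counts per library in V, with the division of shared reads an estimate. It passed the count filter through the SA libraries alone, so no test against V is given for it. Summed over both genes the level was 67.0, 65.7 and 74.4 CPM in V and 370.5, 409 and 402 CPM in SA, which do not overlap. The sum was 5.68-fold higher in SA (log2 fold change 2.51 ± 0.06, adjusted p = 7.91e-22), and the two-sided exact permutation test gave p = 0.1, the smallest value that 3 against 3 libraries allow. In the lines with wild-type or S489D AHR the sum measured 449, 483 and 474 CPM (WT) and 291, 305 and 291 CPM (SD), so the SA line lay between WT and SD. Endogenous and introduced AHR were not separated in these counts.

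**Figure D1:**
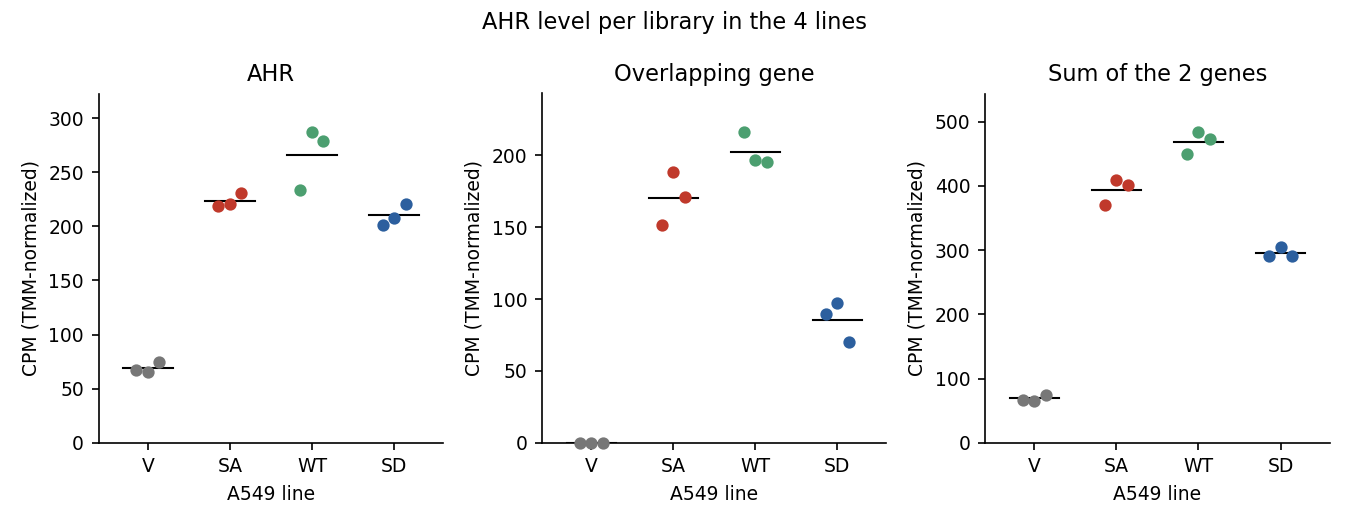
Level of AHR, of the overlapping gene ENSG00000283321 and of their sum (y axis, TMM-normalized CPM from 0) in the 3 libraries of each A549 line (x axis); points are libraries and black lines are means. The sum is 65.7 to 74.4 CPM in V and 370.5 to 409 CPM in SA, with WT above and SD below SA.

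Across all genes, 1069 of 14913 (7.17%) were called between SA and V at an edgeR adjusted p under 0.05, 579 higher in SA (3.88%) and 490 lower (3.29%). The number of calls in each gene list below is to be read beside these shares. The lists were chosen with earlier results of these data known, and most of them exceeded 7.17%. A share above 7.17% is therefore not particular to a list. Most called changes were small. The median absolute log2 fold change of the called genes was 0.34, 827 of the 1069 (77.4%) were below 1.5-fold, and 100 reached 2-fold, 42 higher and 58 lower in SA. The median log2 fold change over all genes tested was -0.0024. Of 12651 protein-coding genes tested 983 were called, 557 higher and 426 lower. Of 1649 long non-coding RNAs tested 14 were called higher and 51 lower, a smaller share than the 7.17% of all genes. No chromosome shifted as a whole: the median log2 fold change of the nuclear chromosomes ranged from -0.03 (chromosome 4) to 0.04 (chromosome 19). The calls fell to 628 without SA replicate 3, to 621 without V replicate 1 and to 665 without V replicate 3, and stood at 726 to 1195 when 1 of the other libraries was left out.

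**Figure D2:**
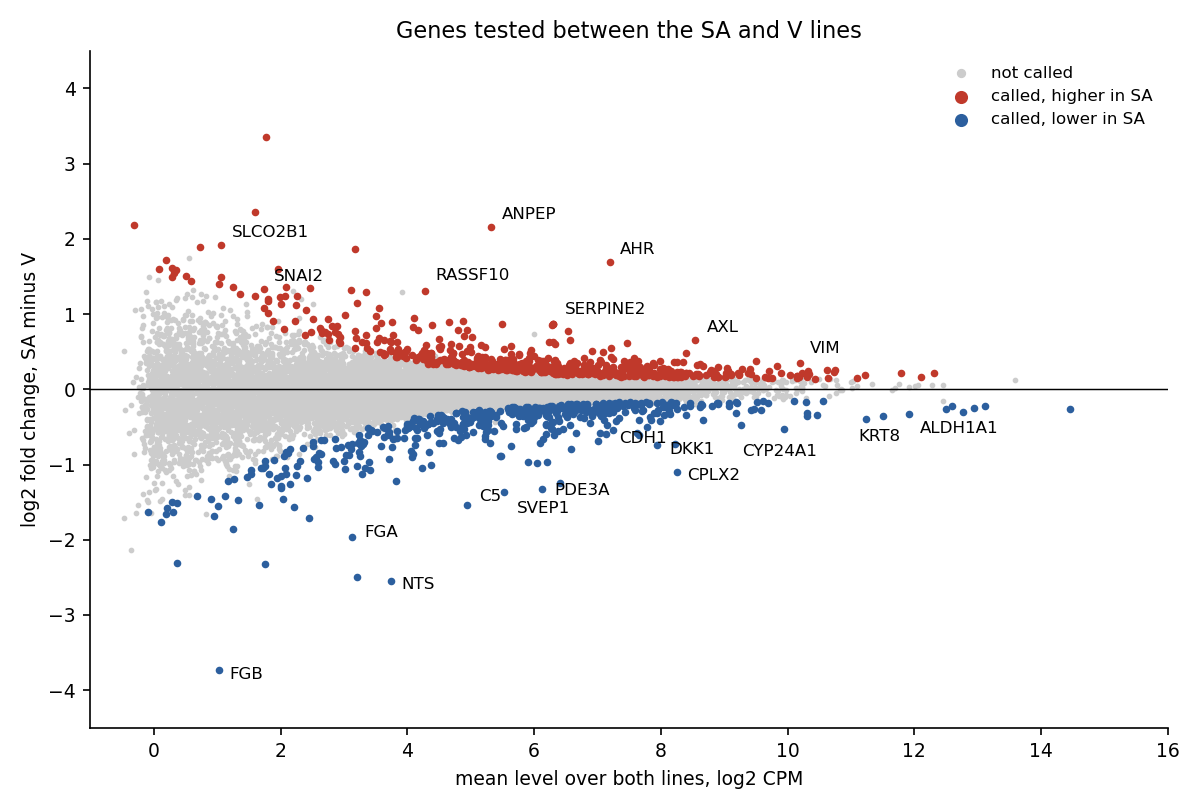
Log2 fold change of SA minus V (y axis) against the mean level over both lines (x axis, log2 CPM) for the genes tested; red and blue points are genes called higher and lower in SA, grey points were not called, and 2 genes with larger changes lie outside the plotted range. The called changes are mostly within 1 log2 unit of zero, with ANPEP and AHR standing above and FGB, NTS and FGA below the other genes of like level.

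The largest fall among called genes with a symbol and at least 2 CPM in the higher line was in FGB, 1 of the fibrinogen genes, which lie side by side on chromosome 4 and encode the 3 chains of the plasma clotting protein. FGB, the beta chain gene, measured 4.91, 2.23 and 4.22 CPM in V and 0.400, 0.172 and 0.266 CPM in SA, which is 48, 21 and 40 counts against 4, 2 and 3 counts. The ratio of its summed counts was 13.9-fold higher in V (95% interval 7.06 to 31.2 from an exact binomial test, which covers counting error only), and the fitted log2 fold change was -3.74 ± 0.49 with adjusted p = 6.55e-06. FGA, the alpha chain gene, measured 16.8, 10.3 and 14.3 CPM in V and 5.80, 1.89 and 3.19 CPM in SA. FGA fell by 1.96 ± 0.25 on the log2 scale (adjusted p = 6.47e-06). FGG, the gamma chain gene, measured 4.19, 1.91 and 2.95 CPM in V and 0.900, 1.37 and 0.798 CPM in SA. FGG fell by 1.55 ± 0.40 on the log2 scale (adjusted p = 0.0143), a call lost without SA replicate 3 or V replicate 1. The V levels of the 3 chains were at most 16.8 CPM.

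The fibrinogen promoters are shown because the 3 genes moved together. RefSeq (GRCh38.p14) gives 1 start site for FGA, 2 for FGB and 1 for FGG, and each line holds the 250 bases before a start site, written along the strand of the gene, with matches to GTTAAT, the half-site of the liver factor HNF1, in capitals on either strand.
FGA, chr4:154590743-154590992, minus strand: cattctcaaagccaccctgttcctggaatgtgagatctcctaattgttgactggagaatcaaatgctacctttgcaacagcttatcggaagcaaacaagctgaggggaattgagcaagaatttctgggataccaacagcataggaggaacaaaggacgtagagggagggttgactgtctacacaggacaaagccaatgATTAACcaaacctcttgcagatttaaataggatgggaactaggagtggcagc
FGB, first start site, chr4:154562730-154562979, plus strand: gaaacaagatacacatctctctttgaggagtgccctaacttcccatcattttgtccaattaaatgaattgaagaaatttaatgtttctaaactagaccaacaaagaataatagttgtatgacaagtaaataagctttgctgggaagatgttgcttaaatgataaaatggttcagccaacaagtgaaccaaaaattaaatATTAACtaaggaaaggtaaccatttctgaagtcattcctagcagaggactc
FGG, chr4:154612657-154612906, minus strand: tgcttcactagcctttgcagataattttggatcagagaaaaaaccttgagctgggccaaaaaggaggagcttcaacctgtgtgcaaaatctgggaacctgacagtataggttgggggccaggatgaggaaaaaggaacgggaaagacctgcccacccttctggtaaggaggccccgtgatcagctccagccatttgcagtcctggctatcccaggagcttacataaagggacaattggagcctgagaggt
The match in FGA begins 52 bases and that in FGB 51 bases before the start site, both in the reverse orientation, and the FGG window holds none. Of the 35116 promoter windows of the same length, 6.23% hold these letters on either strand, so the matches are a description and not a bound site. The second of 2 start site windows of ANPEP, a gene that rose, also holds GTTAAT.

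Other genes that fell included secreted proteins, a receptor and an enzyme. NTS, the neurotensin precursor, measured 21.7, 21.3 and 25.7 CPM in V and 4.40, 3.35 and 4.08 CPM in SA. NTS fell by 2.55 ± 0.16 on the log2 scale (adjusted p = 7.19e-12). C5, the complement component that gives the anaphylatoxin C5a, measured 46.2, 42.3 and 48.4 CPM in V and 17.2, 16.0 and 14.4 CPM in SA. C5 fell by 1.53 ± 0.10 on the log2 scale (adjusted p = 7.19e-12). SVEP1, a large extracellular adhesion protein, measured 68.3, 63.6 and 66.8 CPM in V and 24.9, 26.5 and 26.1 CPM in SA. SVEP1 fell by 1.37 ± 0.08 on the log2 scale (adjusted p = 6.97e-13). Each of these 3 genes was more than 2-fold lower in SA. PDE3A, a cyclic nucleotide phosphodiesterase, measured 93.8, 98.9 and 105 CPM in V and 38.6, 39.5 and 41.7 CPM in SA. PDE3A fell by 1.32 ± 0.07 on the log2 scale (adjusted p = 1.99e-13). RTN4RL2, a Nogo receptor homologue, measured 120.2, 127 and 112 CPM in V and 49.0, 50.1 and 52.7 CPM in SA. RTN4RL2 fell by 1.25 ± 0.07 on the log2 scale (adjusted p = 2.26e-13). CPLX2, which binds the SNARE complex of secretory vesicles, measured 447, 395 and 405 CPM in V and 201, 192 and 192 CPM in SA. CPLX2 fell by 1.10 ± 0.05 on the log2 scale (adjusted p = 2.29e-14). These 3 genes held their calls under every alternative and whichever library was left out.

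Lower in level, but among the largest falls, were HLA-DMB, a class II peptide loading subunit, and H19, an imprinted long non-coding RNA. HLA-DMB measured 6.24, 5.20 and 5.48 CPM in V and 0.800, 1.03 and 1.51 CPM in SA. HLA-DMB fell by 2.33 ± 0.32 on the log2 scale (adjusted p = 1.41e-05). H19 measured 6.24, 6.26 and 5.59 CPM in V and 2.30, 1.98 and 2.31 CPM in SA. H19 fell by 1.46 ± 0.26 on the log2 scale (adjusted p = 0.000432). ELMO1, an adaptor for Rac activation, fell by 1.54 ± 0.33 on the log2 scale (adjusted p = 0.00299), and the non-coding RNAs LINC02582 and LINC00319 fell by 1.71 ± 0.24 and 1.56 ± 0.31 (adjusted p = 1.73e-05 and 0.00155). These 5 genes kept their calls with any 1 library left out. The remaining genes of this group lost their calls when single libraries were left out: KCNJ2, an inward rectifier potassium channel (-1.85, lost without V replicate 3), SPACA6P-AS (-1.47, lost without V replicate 2), CARMIL2 (-1.42, lost without SA replicate 1 or 2 or V replicate 2), DNAH10 (-1.46) and RAB4B-EGLN2 (-1.68). The call of DNAH10 was lost without any library other than SA replicate 2, and that of RAB4B-EGLN2 without any SA library or V replicate 1. RAB4B-EGLN2 is a readthrough transcript that shares exons with 2 neighbouring genes, so its counts are uncertain.

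Among called genes with a symbol, a level of 2 CPM or more and no overlap between the lines, the largest rise was in ANPEP, the cell surface aminopeptidase N, whose level stood 4-fold or more above V in every SA library. ANPEP measured 14.6, 15.4 and 13.8 CPM in V and 68.2, 63.7 and 64.6 CPM in SA, a 4.46-fold difference (log2 fold change 2.16 ± 0.09, adjusted p = 3.71e-16). RASSF10, a Ras association domain protein, measured 11.5, 11.03 and 10.7 CPM in V and 26.3, 29.6 and 26.9 CPM in SA. RASSF10 rose by 1.31 ± 0.11 on the log2 scale (adjusted p = 6.69e-09). COL13A1, a transmembrane collagen, measured 4.91, 4.88 and 4.95 CPM in V and 12.9, 9.96 and 14.2 CPM in SA. COL13A1 rose by 1.32 ± 0.19 on the log2 scale (adjusted p = 2.16e-05). GLI3, a Hedgehog pathway transcription factor, measured 2.25, 2.23 and 2.63 CPM in V and 6.60, 5.76 and 6.03 CPM in SA. GLI3 rose by 1.36 ± 0.25 on the log2 scale (adjusted p = 0.000732). These 4 genes kept their calls under all 13 alternatives. CREB3L1, a membrane-bound transcription factor of the secretory pathway, measured 1.74, 1.91 and 2.11 CPM in V and 6.50, 6.10 and 4.96 CPM in SA. CREB3L1 rose by 1.60 ± 0.27 on the log2 scale (adjusted p = 0.000263). GALNT9, which starts O-linked glycosylation, measured 2.05, 4.77 and 2.42 CPM in V and 8.20, 8.42 and 7.09 CPM in SA. GALNT9 rose by 1.35 ± 0.26 on the log2 scale (adjusted p = 0.000973). SLCO2B1, an organic anion transporter, measured 0.921, 0.212 and 1.48 CPM in V and 2.90, 3.95 and 3.10 CPM in SA. SLCO2B1 rose by 1.91 ± 0.43 on the log2 scale (adjusted p = 0.00473). SLCO2B1 was near the counting limit in V, with 0.212 CPM in V replicate 2.

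Other large rises started from levels of about 2 CPM or less in V and depended on single libraries. MARK1, a microtubule affinity regulating kinase, had a log2 fold change of 1.89 ± 0.46 (adjusted p = 0.0103), and CD22, a sialic acid binding lectin, 1.497 ± 0.39 (adjusted p = 0.0157). FOXC2, a mesenchymal forkhead factor, had 1.51 ± 0.45 (adjusted p = 0.0367) and COL17A1, a hemidesmosomal collagen, 1.44 ± 0.43 (adjusted p = 0.0361). NPTX1, a neuronal pentraxin, and ECM1, an extracellular matrix glycoprotein, had 1.39 ± 0.40 and 1.36 ± 0.37 (adjusted p = 0.0303 and 0.0235). MARK1 lost its call without SA replicate 2 or 3 or V replicate 2 or 3, CD22 without SA replicate 1 or 3 or V replicate 1 or 2, NPTX1 without SA replicate 1 or 2 or V replicate 1 or 3, and ECM1 without SA replicate 2 or V replicate 2 or 3. FOXC2 and COL17A1 kept theirs only when SA replicate 1 was the library left out.

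**Figure D3:**
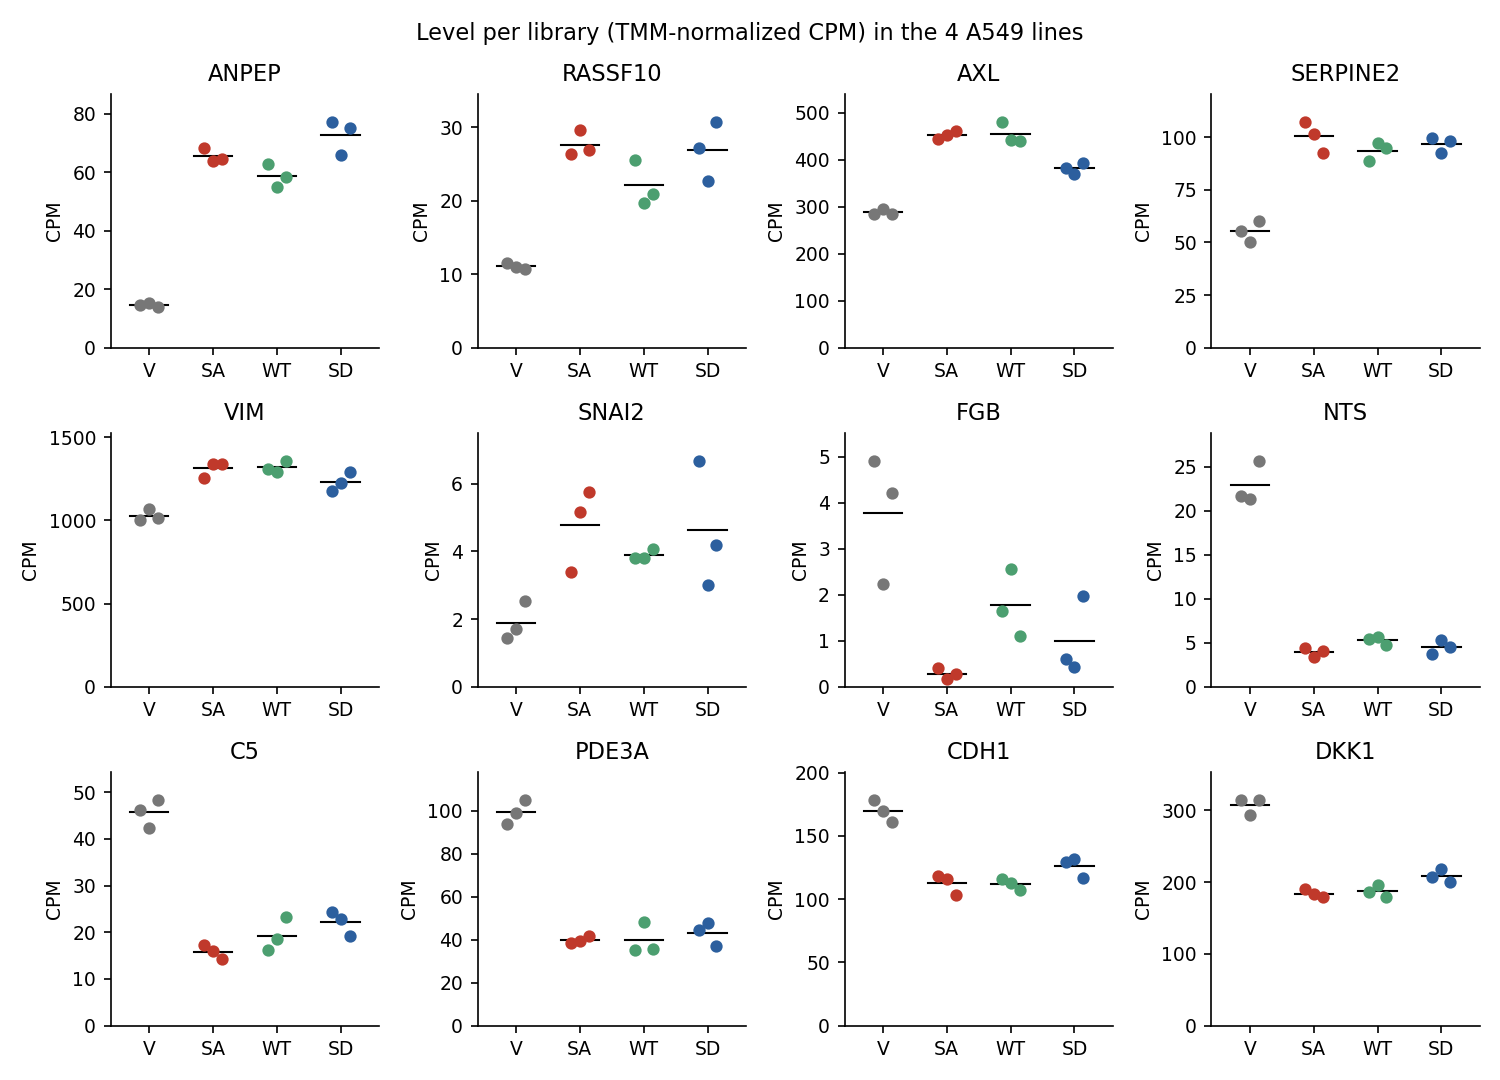
Level per library (y axis, TMM-normalized CPM from 0, scaled per gene) of 12 genes in the V, SA, WT and SD lines (x axis); points are libraries and black lines are means. ANPEP, RASSF10, AXL, SERPINE2, VIM and SNAI2 are higher in the 3 SA libraries than in the 3 V libraries, FGB, NTS, C5, PDE3A, CDH1 and DKK1 are lower, and WT and SD stand on the same side of the V mean as SA for these genes.

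Among the known AHR targets, the 3 called genes were all higher in SA and the changes were below 1.5-fold. Of 10 listed genes 6 passed the count filter, 3 of them called higher and 0 lower, beside 7.17% of all genes, with a list median of 0.12 on the log2 scale beside -0.0024 for all genes. Of these 6 genes 4 were above zero and 2 below. Their log2 fold changes ran from -0.73, which was not called, to 0.48. CYP1B1, a cytochrome P450 that oxidizes polycyclic hydrocarbons and oestrogens, measured 60.2, 59.4 and 67.4 CPM in V and 81.4, 79.9 and 83.5 CPM in SA. CYP1B1 rose by 0.38 ± 0.07 on the log2 scale (adjusted p = 0.000475). TIPARP, an ADP-ribosyltransferase that feeds back on AHR, measured 16.8, 25.0 and 24.2 CPM in V and 29.5, 29.1 and 33.7 CPM in SA. TIPARP rose by 0.48 ± 0.12 on the log2 scale (adjusted p = 0.0095), a call lost without SA replicate 3 or V replicate 1. NQO1, a quinone reductase also under NRF2, measured 883, 869 and 902 CPM in V and 995, 1051 and 1039 CPM in SA. NQO1 rose by 0.21 ± 0.04 on the log2 scale (adjusted p = 0.0023). The classical target CYP1A1 stayed near the counting limit in both lines, with 0.921, 0.212 and 0.632 CPM in V and 0.900, 0.601 and 0.355 CPM in SA, and CYP1A2 was at 0 in all 12 libraries, which allows up to 0.320 CPM in the V and SA libraries. Neither could be tested at this depth.

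The TIPARP promoter is shown because TIPARP rose and its first window holds the letters of the AHR core. RefSeq lists 3 start sites for TIPARP, and the 250 bases before the first hold GCGTG in capitals at 2 places, both in the reverse orientation, whereas the windows of its other start sites hold it 0 times.
TIPARP, first start site, chr3:156674340-156674589, plus strand: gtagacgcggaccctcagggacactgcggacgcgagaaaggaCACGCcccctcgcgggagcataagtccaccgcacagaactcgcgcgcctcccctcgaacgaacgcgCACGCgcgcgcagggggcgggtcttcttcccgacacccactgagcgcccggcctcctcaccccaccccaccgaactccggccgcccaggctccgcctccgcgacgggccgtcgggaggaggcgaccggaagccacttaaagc
The matches begin 208 and 142 bases before this start site. The same letters stand in 32.2% of the 35116 promoter windows on either strand, the longer form TNGCGTG stands in 4.52% and was not found before any of the 3 TIPARP start sites, and neither form was found in the NQO1 window. Of 10 genes looked up 7 had windows, and the TIPARP window was picked with its match known. GCGTG also stands in the second windows of ANPEP (1 match) and AXL (2 matches). Neither ANPEP window holds TGANTCA, the AP-1 motif.

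Of 10 listed partners of AHR all were tested, 0 were called higher and 1 lower (10.0%, beside 7.17% of all genes), with a median of 0.03. NCOA3, a p160 coactivator of nuclear receptors and AHR, measured 271, 260.2 and 280.2 CPM in V and 223, 224 and 229 CPM in SA. NCOA3 fell by 0.27 ± 0.05 on the log2 scale (adjusted p = 0.000578). ARNT, the dimer partner, measured 40.7, 41.6 and 36.4 CPM in V and 36.4, 37.4 and 37.8 CPM in SA (adjusted p = 0.572). A second partner was called without SA replicate 1. Of 15 genes that make or carry tryptophan metabolites, the source of endogenous AHR ligands, 10 were tested and 0 called by edgeR (0 by DESeq2), 2 had an unadjusted p under 0.05, and the median was -0.02. SLC7A5 and SLC3A2, the 2 chains of the large neutral amino acid transporter, overlapped between the lines. SLC7A5 measured 1537, 1559 and 1462 CPM in V and 1569, 1536 and 1609.7 CPM in SA (adjusted p = 0.66), and the log2 fold change of SLC3A2 was 0.05 ± 0.05 (adjusted p = 0.681). In the tryptophan list 1 member was called without SA replicate 1 or V replicate 3.

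Thyroid hormone genes were of interest because the study turned to DIO2, the deiodinase that converts thyroxine to the active hormone. DIO2 measured 16.9, 15.4 and 18.3 CPM in V and 14.8, 13.9 and 14.9 CPM in SA, lower in each SA library than in each V library but not called (log2 fold change -0.22 ± 0.13, adjusted p = 0.339). Of 14 listed genes 9 were tested, 2 called higher and 0 lower (22.2%, beside 7.17% of all genes), with a median of 0.02. RXRA, 1 of the called genes and the dimer partner of the hormone receptors, measured 107, 113 and 107 CPM in V and 131, 133 and 129.7 CPM in SA. RXRA rose by 0.26 ± 0.06 on the log2 scale (adjusted p = 0.00314). PLK1, the kinase of the site, measured 174, 177 and 180.2 CPM in V and 186, 190.1 and 181 CPM in SA and was not called (log2 fold change 0.06 ± 0.05, adjusted p = 0.528).

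The markers of epithelial and mesenchymal state that the study followed changed in part. On the epithelial side CDH1, the adherens junction protein E-cadherin, was lower in every SA library, with 179, 169 and 161 CPM in V and 118, 116 and 103 CPM in SA. CDH1 fell by 0.60 ± 0.06 on the log2 scale (adjusted p = 1.18e-07), and it was the only called gene of the 8 listed and tested, a call kept under all 13 alternatives. That was 12.5% of the epithelial list, beside 7.17% of all genes, with 1 member above zero, 7 below and a median of -0.16. On the mesenchymal side VIM, the intermediate filament vimentin, was higher in every SA library, with 1004, 1068 and 1013 CPM in V and 1257, 1339.7 and 1342 CPM in SA. VIM rose by 0.35 ± 0.05 on the log2 scale (adjusted p = 6.69e-06). MMP2, a gelatinase, measured 7.47, 6.57 and 8.43 CPM in V and 17.7, 14.3 and 15.8 CPM in SA. MMP2 rose by 1.08 ± 0.16 on the log2 scale (adjusted p = 3.28e-05). SNAI2, the repressor Slug, measured 1.43, 1.70 and 2.53 CPM in V and 3.401, 5.15 and 5.76 CPM in SA. SNAI2 rose by 1.34 ± 0.31 on the log2 scale (adjusted p = 0.00687), a call lost without SA replicate 3. VCAN, the matrix proteoglycan versican, went the other way, with 2.76, 4.24 and 2.42 CPM in V and 1.90, 1.29 and 0.887 CPM in SA (log2 fold change -1.22 ± 0.37, adjusted p = 0.045), and lost its call when any library other than SA replicate 1 was left out. CDH2, N-cadherin, overlapped between the lines (35.9, 36.9 and 32.1 CPM in V and 40.01, 36.0 and 38.7 CPM in SA; log2 fold change 0.12 ± 0.09, adjusted p = 0.473). Of 13 listed mesenchymal markers 12 were tested, 3 called higher and 1 lower (33.3%, beside 7.17% of all genes), with a median of 0.16. Without SA replicate 3, 2 were called.

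Other epithelial structure genes were called in part. Of 18 tight junction and desmosome genes 16 were tested, 0 called higher and 3 lower (18.8%, beside 7.17% of all genes). In this list 9 members were above zero and 7 below, with a median of 0.01. JUP, the desmosomal plakoglobin, measured 155, 156 and 162 CPM in V and 115, 98.6 and 104 CPM in SA. JUP fell by 0.58 ± 0.06 on the log2 scale (adjusted p = 1.34e-07). CLDN1, a claudin, measured 67.2, 68.8 and 77.3 CPM in V and 57.9, 57.9 and 57.0 CPM in SA. CLDN1 fell by 0.31 ± 0.07 on the log2 scale (adjusted p = 0.00557). PKP2, a plakophilin, fell with a log2 fold change of -0.48 ± 0.14 (adjusted p = 0.0291). CLDN1 lost its call without V replicate 3 and PKP2 without any library other than SA replicate 1, and 1 member of the list was called without V replicate 3. The simple epithelial keratins KRT8 and KRT18, which pair into one filament, fell together. KRT8 measured 3226, 3328 and 3237 CPM in V and 2500.2, 2590.3 and 2630.3 CPM in SA. KRT8 fell by 0.35 ± 0.04 on the log2 scale (adjusted p = 2.02e-06). KRT18 measured 2731, 2798 and 2659 CPM in V and 2035, 2144 and 2073 CPM in SA. KRT18 fell by 0.40 ± 0.04 on the log2 scale (adjusted p = 3.72e-07). The list of keratins and other intermediate filaments had 11 of 12 members tested, 2 called higher and 3 lower, with a median of -0.0046. Its other called members were the nuclear lamins LMNA (log2 fold change 0.27 ± 0.05, adjusted p = 0.000553) and LMNB2 (log2 fold change 0.26 ± 0.05, adjusted p = 0.00245), which were higher in SA, and KRT80 (-0.20, adjusted p = 0.0351), which was lower and kept its call in 1 of 6 leave-one-out fits, without V replicate 1.

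The called lineage and mucin genes were few, and all were lower in SA. Of 24 lung and endoderm lineage genes 11 were tested, 0 called higher and 2 lower (18.2%, beside 7.17% of all genes), with a median of -0.18. FOXA1, an endodermal pioneer factor, measured 6.04, 7.32 and 6.11 CPM in V and 3.401, 2.92 and 3.81 CPM in SA. FOXA1 fell by 0.95 ± 0.23 on the log2 scale (adjusted p = 0.0109). SOX2, a factor of airway progenitors, measured 11.6, 11.6 and 8.32 CPM in V and 5.50, 6.19 and 7.09 CPM in SA. SOX2 fell by 0.75 ± 0.19 on the log2 scale (adjusted p = 0.0126). Both calls were lost without V replicate 2, FOXA1 also without SA replicate 2 and SOX2 without V replicate 1. Of 14 mucin and CEACAM genes 8 were tested and 2 called lower (25%), with a median of -0.28. CEACAM6, a cell surface adhesion molecule, measured 63.4, 52.9 and 56.3 CPM in V and 35.4, 30.2 and 28.3 CPM in SA. CEACAM6 fell by 0.89 ± 0.09 on the log2 scale (adjusted p = 1.14e-07). MUC5B, a gel-forming mucin, measured 427, 336 and 371 CPM in V and 359, 271 and 271 CPM in SA, where SA replicate 1 lay inside the V range (log2 fold change -0.34 ± 0.08, adjusted p = 0.00888), and it lost its call without SA replicate 2, SA replicate 3 or V replicate 1.

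Genes of the matrix and its receptors were among the lists with the most calls. Of 31 collagen and matrix fibre genes 29 were tested, 11 called higher and 5 lower (55.2%, beside 7.17% of all genes), with a median of 0.02. These 16 calls became 10 without SA replicate 2. COL6A1 and COL6A2, 2 chains of type VI collagen, both rose. COL6A1 measured 74.6, 75.4 and 69.9 CPM in V and 132, 100.3 and 116 CPM in SA. COL6A1 rose by 0.65 ± 0.08 on the log2 scale (adjusted p = 1.35e-06). COL6A2 measured 58.4, 59.7 and 58.1 CPM in V and 96.7, 90.3 and 87.3 CPM in SA. COL6A2 rose by 0.63 ± 0.07 on the log2 scale (adjusted p = 2.49e-07). LOXL2, a collagen crosslinking oxidase, measured 281, 282 and 279 CPM in V and 432, 368 and 382 CPM in SA. LOXL2 rose by 0.48 ± 0.05 on the log2 scale (adjusted p = 7.67e-07). FBN2, the microfibril protein fibrillin 2, measured 58.5, 63.4 and 65.2 CPM in V and 36.3, 37.2 and 37.6 CPM in SA. FBN2 fell by 0.76 ± 0.07 on the log2 scale (adjusted p = 7.80e-08). Its relative FBN1 overlapped between the lines, with 53.8, 45.5 and 55.2 CPM in V and 58.9, 50.3 and 54.1 CPM in SA (log2 fold change 0.07 ± 0.08, adjusted p = 0.7). Of 22 integrins and laminins 19 were tested, 6 called higher and 0 lower, with a median of 0.05. ITGB3, a chain of vitronectin receptors, measured 13.0, 17.4 and 14.2 CPM in V and 26.4, 26.0 and 28.5 CPM in SA. ITGB3 rose by 0.85 ± 0.12 on the log2 scale (adjusted p = 1.10e-05). ITGA2, a chain of a collagen receptor, measured 72.8, 62.1 and 73.3 CPM in V and 96.3, 86.8 and 91.5 CPM in SA. ITGA2 rose by 0.39 ± 0.07 on the log2 scale (adjusted p = 0.000578). ITGA3, a chain of a laminin receptor, measured 810.3, 829 and 796 CPM in V and 1096, 938 and 989 CPM in SA. ITGA3 rose by 0.31 ± 0.05 on the log2 scale (adjusted p = 0.000218). The hemidesmosomal ITGB4 (log2 fold change 0.23 ± 0.05, adjusted p = 0.00557) and the laminin chain LAMB3 (log2 fold change 0.39 ± 0.10, adjusted p = 0.0147) completed the named members, LAMB3 without a call when SA replicate 1 or V replicate 3 was left out.

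Extracellular proteases and their inhibitors were also called in both directions. Of 21 metalloproteinases and inhibitors 15 were tested, 3 called higher and 3 lower (40%, beside 7.17% of all genes), with a median of 0.04. ADAM19, a sheddase, and TIMP1, a metalloproteinase inhibitor, rose (log2 fold change 0.57 ± 0.09, adjusted p = 0.000116 for ADAM19, log2 fold change 0.33 ± 0.06, adjusted p = 0.00078 for TIMP1). The metalloproteinases MMP15 (-0.34), MMP24 (-0.36) and MMP7 (-0.68) fell, with adjusted p = 0.00441, 0.00101 and 0.0179, that of MMP7 lost without SA replicate 3 or V replicate 2. Of 16 serpins and plasminogen system genes 12 were tested, 4 called higher and 0 lower, with a median of 0.22. SERPINE2, a thrombin and plasminogen activator inhibitor, measured 55.2, 50.3 and 60.2 CPM in V and 107, 101 and 92.6 CPM in SA. SERPINE2 rose by 0.86 ± 0.07 on the log2 scale (adjusted p = 5.76e-09). PLAU, the urokinase that its family restrains, measured 124, 126 and 124 CPM in V and 161, 153 and 156 CPM in SA. PLAU rose by 0.32 ± 0.05 on the log2 scale (adjusted p = 0.000187). SERPINH1, a collagen chaperone, rose by less (log2 fold change 0.26 ± 0.05, adjusted p = 0.00156), and SERPINB9 (log2 fold change 0.26 ± 0.07, adjusted p = 0.0279) lost its call whichever library was left out.

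Growth factor and adhesion signalling genes were called mostly upward. Of 16 YAP and TEAD targets all were tested, 6 called higher and 0 lower (37.5%, beside 7.17% of all genes), with a median of 0.12. AXL, a receptor tyrosine kinase, measured 284, 294 and 284 CPM in V and 444, 453 and 462 CPM in SA. AXL rose by 0.65 ± 0.05 on the log2 scale (adjusted p = 1.11e-10). NT5E, the ectonucleotidase CD73, measured 20.3, 19.6 and 21.6 CPM in V and 37.1, 40.6 and 38.2 CPM in SA. NT5E rose by 0.91 ± 0.09 on the log2 scale (adjusted p = 9.34e-08). CCN1, a matricellular protein, measured 59.2, 65.0 and 56.2 CPM in V and 81.0, 77.3 and 77.7 CPM in SA. CCN1 rose by 0.38 ± 0.07 on the log2 scale (adjusted p = 0.000683). CCN2, its relative, measured 13.6, 10.7 and 9.27 CPM in V and 16.6, 18.1 and 17.5 CPM in SA. CCN2 rose by 0.63 ± 0.14 on the log2 scale (adjusted p = 0.00558). PTPN14, a phosphatase that restrains YAP, had a log2 fold change of 0.35 ± 0.07 (adjusted p = 0.0023). None of these 5 genes overlapped between the lines, which also held for 1042 of all 1069 called genes. All 5 kept their calls with any library left out. Of 13 AP-1 and early response factors 12 were tested, 3 called higher and 0 lower, the same number under each of the 13 alternatives, with a median of 0.29. They were subunits of the AP-1 dimer. FOSL1 measured 21.5, 24.3 and 21.5 CPM in V and 38.7, 38.9 and 39.0 CPM in SA. FOSL1 rose by 0.79 ± 0.09 on the log2 scale (adjusted p = 7.67e-07). JUN measured 30.7, 29.3 and 25.6 CPM in V and 46.4, 39.8 and 43.2 CPM in SA. JUN rose by 0.59 ± 0.09 on the log2 scale (adjusted p = 6.86e-05). FOSL2 measured 369.5, 369 and 347 CPM in V and 448, 447 and 451 CPM in SA. FOSL2 rose by 0.30 ± 0.05 on the log2 scale (adjusted p = 6.90e-05).

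In the EGFR family 14 of 16 listed genes were tested, and the 3 calls (21.4%, beside 7.17% of all genes) were all ligands and all higher in SA. The median of this list was 0.01, with 7 members above zero and 7 below. EREG, epiregulin, measured 117, 112 and 115 CPM in V and 156, 149 and 145 CPM in SA. EREG rose by 0.38 ± 0.06 on the log2 scale (adjusted p = 2.81e-05). NRG1, neuregulin 1, measured 112, 113 and 114 CPM in V and 135, 137 and 129.5 CPM in SA. NRG1 rose by 0.24 ± 0.06 on the log2 scale (adjusted p = 0.00589). TGFA, a further ligand, measured 13.5, 11.3 and 13.8 CPM in V and 19.4, 16.3 and 17.2 CPM in SA. TGFA rose by 0.44 ± 0.13 on the log2 scale (adjusted p = 0.038). TGFA lost its call without any library other than SA replicate 2. In the IGF axis 15 of 16 genes were tested, 4 called higher and 2 lower, with a median of -0.03. STC1 and STC2, secreted inhibitors of the protease PAPPA, both rose. STC1 measured 10.2, 10.2 and 7.90 CPM in V and 18.5, 17.9 and 16.8 CPM in SA. STC1 rose by 0.90 ± 0.14 on the log2 scale (adjusted p = 9.58e-05). STC2 measured 55.3, 52.3 and 54.7 CPM in V and 74.8, 68.2 and 78.1 CPM in SA. STC2 rose by 0.44 ± 0.07 on the log2 scale (adjusted p = 0.000147). The insulin receptor substrates went opposite ways. IRS1 measured 162, 171 and 160.3 CPM in V and 211, 216 and 230.3 CPM in SA. IRS1 rose by 0.41 ± 0.05 on the log2 scale (adjusted p = 5.75e-06). IRS2 measured 69.0, 74.0 and 71.4 CPM in V and 61.5, 52.1 and 51.7 CPM in SA. IRS2 fell by 0.38 ± 0.08 on the log2 scale (adjusted p = 0.00132). The binding protein IGFBP6 was higher (log2 fold change 0.36 ± 0.06, adjusted p = 0.00031). Of 24 TGF-beta and BMP genes 21 were tested, 5 called higher and 2 lower (4 called without SA replicate 3 or any of the V libraries). The median of this list was -0.05, with 9 members above zero and 12 below. The receptor TGFBR2 measured 168, 168 and 176 CPM in V and 204, 224 and 218 CPM in SA. TGFBR2 rose by 0.33 ± 0.05 on the log2 scale (adjusted p = 9.28e-05). The activin subunit INHBB measured 75.3, 75.3 and 66.8 CPM in V and 56.3, 49.7 and 57.6 CPM in SA. INHBB fell by 0.42 ± 0.08 on the log2 scale (adjusted p = 0.000547). The BMP receptor BMPR1B, the target ID2 and the ligand TGFB1 had log2 fold changes of -0.48, 0.37 and 0.19 (adjusted p = 0.0113, 0.0123 and 0.0167). BMPR1B lost its call without SA replicate 3 or V replicate 3, ID2 without V replicate 2, and TGFB1 without V replicate 1 or 3.

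The called Wnt genes were all lower in SA. Of 30 listed genes 22 were tested, 0 called higher and 5 lower (22.7%, beside 7.17% of all genes). The list median was -0.10, and 3 members were called without V replicate 1. DKK1, a secreted Wnt antagonist, measured 314, 293 and 315 CPM in V and 190.1, 183 and 179 CPM in SA (log2 fold change -0.75 ± 0.05, adjusted p = 4.08e-11), among the 10 smallest adjusted p-values of the comparison. RNF43, a ubiquitin ligase that removes Frizzled receptors, measured 32.7, 24.2 and 25.7 CPM in V and 14.7, 13.4 and 13.2 CPM in SA. RNF43 fell by 1.01 ± 0.12 on the log2 scale (adjusted p = 2.02e-06). LRP6, a Wnt coreceptor, measured 131, 124 and 135 CPM in V and 105, 110.3 and 108 CPM in SA. LRP6 fell by 0.28 ± 0.06 on the log2 scale (adjusted p = 0.00209). The receptor FZD8 (log2 fold change -0.46 ± 0.11, adjusted p = 0.00724) and the ligand WNT7B (log2 fold change -0.19 ± 0.05, adjusted p = 0.014) fell by less firmly, FZD8 without a call when V replicate 1 was left out and WNT7B when SA replicate 2 or V replicate 1 or 2 was left out.

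**Figure D4:**
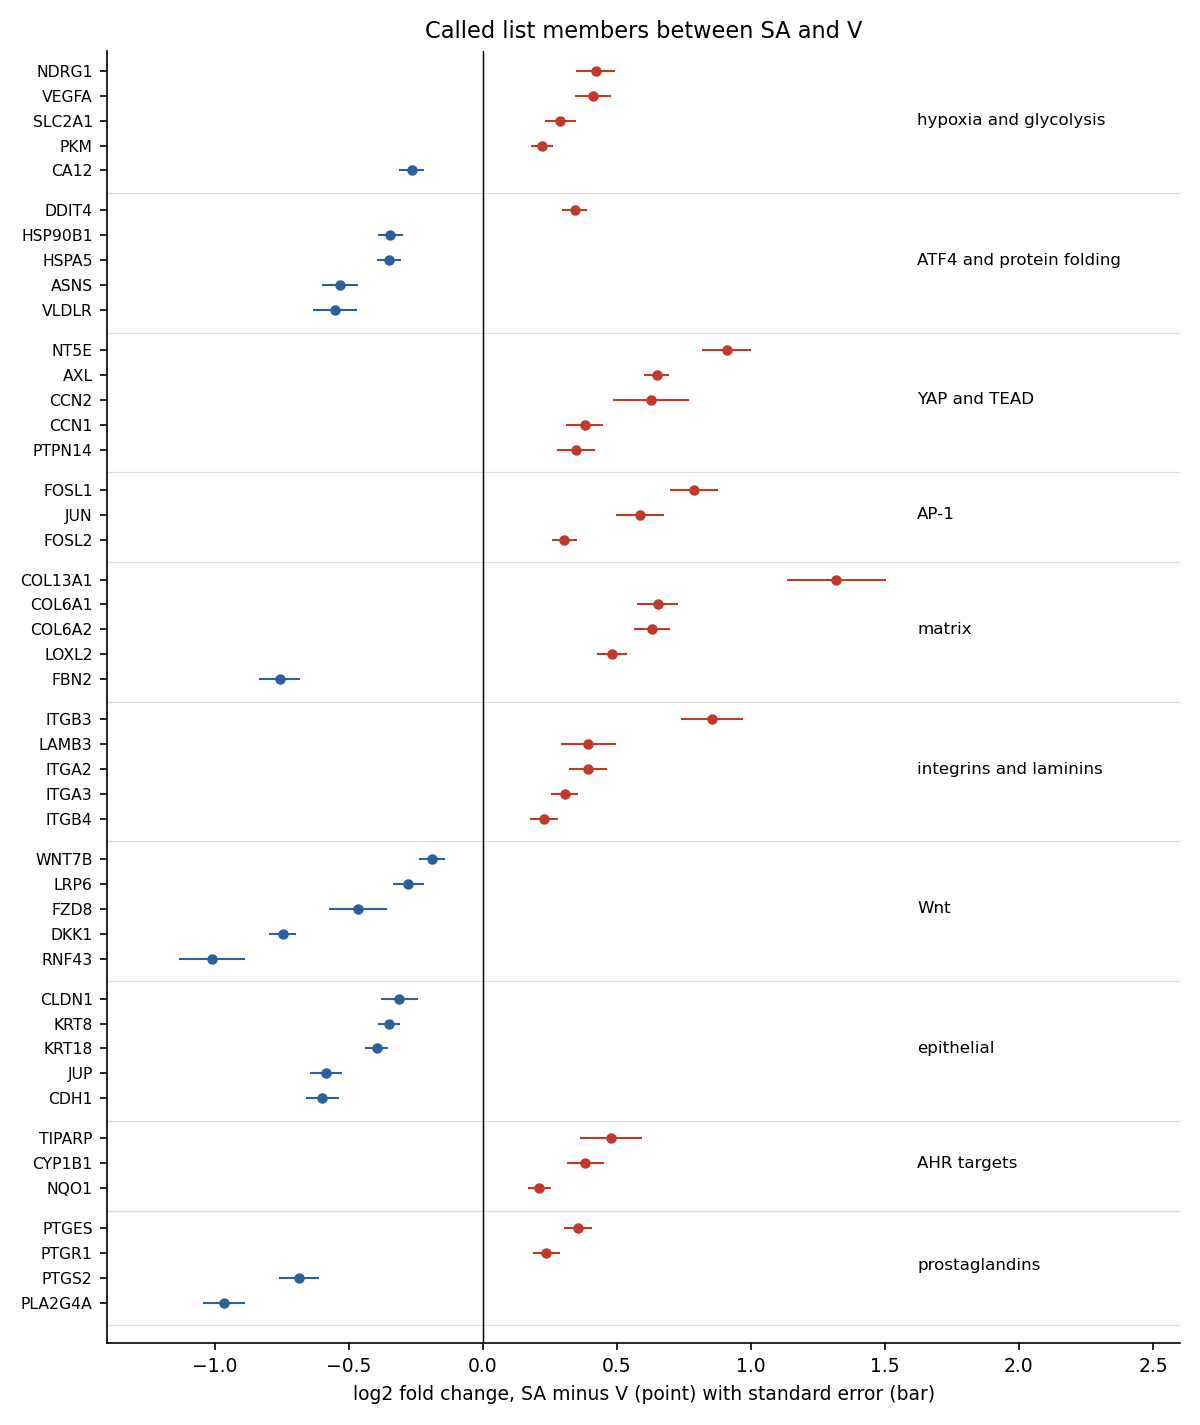
Log2 fold change of SA minus V (x axis, points) with its standard error (bars) for called members of 10 of the gene lists (y axis), up to 5 per list. Members of the YAP and TEAD, AP-1, integrin and laminin and AHR target lists lie to the right of zero, those of the Wnt and epithelial lists to the left, and those of the hypoxia, ATF4, matrix and prostaglandin lists on both sides.

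Glycolysis and hypoxia genes that were called were nearly all higher in SA. Of 25 listed genes 24 were tested, 11 called higher and 1 lower, beside 3.88% and 3.29% of all genes, and 7 were called in all without V replicate 1. The list median was 0.21. PKM, the pyruvate kinase of glycolysis, measured 3269, 3252 and 3289 CPM in V and 3722, 3809.7 and 3962 CPM in SA. PKM rose by 0.22 ± 0.04 on the log2 scale (adjusted p = 0.000895). SLC2A1, the glucose transporter GLUT1, measured 143, 154 and 151 CPM in V and 196, 174 and 180.4 CPM in SA. SLC2A1 rose by 0.29 ± 0.06 on the log2 scale (adjusted p = 0.00121). VEGFA, an angiogenic growth factor, measured 60.5, 64.5 and 67.3 CPM in V and 87.6, 83.3 and 85.8 CPM in SA. VEGFA rose by 0.41 ± 0.07 on the log2 scale (adjusted p = 0.000132). NDRG1, a stress-induced protein, measured 50.4, 55.5 and 48.3 CPM in V and 69.9, 68.6 and 68.9 CPM in SA. NDRG1 rose by 0.42 ± 0.07 on the log2 scale (adjusted p = 0.000272). CA12, a surface carbonic anhydrase, was the member that fell, with 814, 747 and 759.6 CPM in V and 671, 639 and 631 CPM in SA. CA12 fell by 0.27 ± 0.05 on the log2 scale (adjusted p = 0.000496). Of the mitochondrial genome's 15 genes tested, 6 were called lower in SA and 1 higher, the ribosomal RNA MT-RNR1 (log2 fold change 0.17, adjusted p = 0.0474), which was chosen after its values were seen. Of the 13 protein-coding genes, all tested, 0 were called higher and 6 lower (3 without V replicate 1, and 1 by DESeq2), with a median of -0.15. MT-CO2 measured 8342, 7119 and 7604 CPM in V and 6787, 6437 and 5504 CPM in SA. MT-CO2 fell by 0.31 ± 0.06 on the log2 scale (adjusted p = 0.00124). MT-CYB had a log2 fold change of -0.26 ± 0.05 (adjusted p = 0.00217). MT-CO1, MT-ND4 and MT-ATP6 had -0.26, -0.23 and -0.22 (adjusted p = 0.00249, 0.0072 and 0.0132). MT-ND4 lost its call without SA replicate 3 or V replicate 1, and MT-ATP6 without these or V replicate 3. The mitochondrial share of all counts was 8.57% to 9.70% in V and 7.33% to 8.81% in SA, which overlap, and its part in these calls was not tested.

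The called genes of protein folding and the ATF4 response were mostly lower in SA. Of 21 listed genes all were tested, 1 called higher and 7 lower (38.1%, beside 7.17% of all genes), with a median of -0.21. HSPA5, the endoplasmic reticulum chaperone BiP, measured 1456, 1394 and 1414 CPM in V and 1175, 1095 and 1090.0 CPM in SA. HSPA5 fell by 0.35 ± 0.05 on the log2 scale (adjusted p = 6.47e-06). HSP90B1 measured 1614, 1528 and 1590.4 CPM in V and 1303, 1245 and 1195 CPM in SA. HSP90B1 fell by 0.34 ± 0.05 on the log2 scale (adjusted p = 8.47e-06). ASNS, asparagine synthetase, measured 98.2, 103 and 109 CPM in V and 75.0, 75.9 and 64.8 CPM in SA. ASNS fell by 0.53 ± 0.07 on the log2 scale (adjusted p = 5.93e-06). VLDLR, a lipoprotein receptor, measured 47.7, 48.5 and 50.3 CPM in V and 35.7, 30.2 and 34.8 CPM in SA. VLDLR fell by 0.55 ± 0.08 on the log2 scale (adjusted p = 4.76e-05). The member that rose was DDIT4, an inhibitor of mTORC1 that also responds to hypoxia (345, 354 and 341 CPM in V and 437, 429 and 458 CPM in SA; log2 fold change 0.34 ± 0.05, adjusted p = 1.40e-05). All 5 kept their calls whichever library was left out. Amino acid transporters were tested in 13 of 17 cases, 2 called higher and 1 lower: SLC6A6, the taurine transporter (log2 fold change 0.22 ± 0.05, adjusted p = 0.00429), SLC38A2 (log2 fold change 0.16 ± 0.05, adjusted p = 0.0351) and SLC7A2, a cationic transporter (log2 fold change -0.53 ± 0.10, adjusted p = 0.000705). SLC38A2 kept its call in 2 of 6 leave-one-out fits, without SA replicate 1 and without V replicate 1.

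Of 15 cytosolic heat shock genes 14 were tested, 2 called higher and 1 lower (21.4%, beside 7.17% of all genes), with a median of 0.06, and 0 or 1 called without SA replicate 2, SA replicate 3, V replicate 1 or V replicate 2. The small chaperone HSPB1 (log2 fold change 0.21 ± 0.05, adjusted p = 0.00551) lost its call without V replicate 1, BAG3 (log2 fold change 0.18 ± 0.05, adjusted p = 0.0403) without any library other than V replicate 3, and HSPA4L (log2 fold change -0.26 ± 0.08, adjusted p = 0.0346) whichever library was left out.

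Inflammatory genes divided by family. Of 17 NF-kB subunits and feedback targets 16 were tested and 0 called in the edgeR test (0 by DESeq2 as well), with a median of 0.10; 3 had an unadjusted p under 0.05, and 1 was called without SA replicate 1. The members named, TNFAIP2 and BCL3, were not called. TNFAIP2 measured 778, 816 and 766 CPM in V and 820.3, 769.6 and 761 CPM in SA, and BCL3 measured 150.5, 158 and 158 CPM in V and 175, 168 and 169 CPM in SA. Of 25 chemokines and cytokines 13 were tested, 1 called higher and 3 lower (30.8%, beside 7.17% of all genes), and 4 with each library left out. CXCL5, a neutrophil chemokine, measured 290.3, 281 and 303 CPM in V and 211, 221 and 220.3 CPM in SA. CXCL5 fell by 0.43 ± 0.05 on the log2 scale (adjusted p = 9.52e-07). CXCL1, a further neutrophil chemokine, measured 6.24, 6.36 and 6.64 CPM in V and 2.90, 3.26 and 3.37 CPM in SA. CXCL1 fell by 1.01 ± 0.23 on the log2 scale (adjusted p = 0.00573). The cytokine IL18 measured 48.5, 45.2 and 48.5 CPM in V and 36.3, 35.6 and 38.4 CPM in SA. IL18 fell by 0.37 ± 0.08 on the log2 scale (adjusted p = 0.00249). CSF1, the macrophage growth factor, went up and measured 95.7, 106 and 96.6 CPM in V and 146, 138 and 142 CPM in SA. CSF1 rose by 0.51 ± 0.06 on the log2 scale (adjusted p = 9.25e-07). In the IL-6 family 12 of 13 genes were tested, SOCS3, a feedback inhibitor, called higher (log2 fold change 0.38 ± 0.08, adjusted p = 0.00313) and JAK1, the kinase, lower (log2 fold change -0.19 ± 0.05, adjusted p = 0.0326), the latter only when no library or SA replicate 2 was left out.

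Complement genes were tested in 15 of 18 cases, 2 called higher and 4 lower (40%, beside 7.17% of all genes), with a median of -0.13. Besides C5, the chaperone-like CLU fell by 0.22 on the log2 scale (adjusted p = 0.00576), a call lost without SA replicate 2, SA replicate 3 or V replicate 1. C1R, a protease of the first component, rose (31.7, 32.3 and 27.7 CPM in V and 44.01, 38.4 and 40.1 CPM in SA; log2 fold change 0.41 ± 0.09, adjusted p = 0.00369), as did CD59, which blocks the membrane attack complex (log2 fold change 0.24 ± 0.05, adjusted p = 0.00386). Prostaglandin genes also parted by step. PLA2G4A, the phospholipase that releases arachidonic acid, measured 108, 86.4 and 97.2 CPM in V and 53.5, 50.5 and 46.2 CPM in SA. PLA2G4A fell by 0.96 ± 0.08 on the log2 scale (adjusted p = 1.63e-09). PTGS2, the inducible cyclooxygenase, measured 166, 147 and 164 CPM in V and 114, 86.6 and 98.3 CPM in SA. PTGS2 fell by 0.69 ± 0.07 on the log2 scale (adjusted p = 3.10e-07). PTGES, the prostaglandin E synthase, measured 153, 156 and 155 CPM in V and 191, 209 and 196 CPM in SA. PTGES rose by 0.35 ± 0.05 on the log2 scale (adjusted p = 3.70e-05). PTGR1, a reductase that inactivates lipid mediators, was also higher (log2 fold change 0.24 ± 0.05, adjusted p = 0.00354), but was not called without V replicate 1. Of 14 prostaglandin genes 8 were tested, and these 4 were the calls.

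Antigen presentation genes were called more often than interferon-stimulated genes, a difference that was not tested. Of 17 MHC class I presentation genes all were tested, 3 called higher and 1 lower (23.5%, beside 7.17% of all genes), with a median of 0.18. The light chain B2M measured 181, 166 and 163 CPM in V and 211, 206 and 222 CPM in SA. B2M rose by 0.31 ± 0.05 on the log2 scale (adjusted p = 0.000298). The heavy chain HLA-C had a log2 fold change of 0.45 ± 0.07 (adjusted p = 0.000194), although reads are shared among the class I heavy chain genes and their division is uncertain. PDIA3, a chaperone of peptide loading, was lower (log2 fold change -0.22 ± 0.05, adjusted p = 0.00352), except without V replicate 1. Of 37 interferon-stimulated genes 29 were tested, 0 called higher and 1 lower (3.45%, below the 7.17% of all genes), with a median of 0.10. That gene, OAS1, measured 19.1, 19.8 and 17.7 CPM in V and 10.8, 11.9 and 17.1 CPM in SA (log2 fold change -0.51 ± 0.14, adjusted p = 0.0273), and its call was lost without SA replicate 1, SA replicate 2, V replicate 1 or V replicate 2. The list had 0 calls without SA replicate 2 or V replicate 2 and 2 without V replicate 3.

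Redox and drug-metabolising enzymes were called in both directions. Of 25 NRF2 antioxidant genes all were tested, 2 called higher and 3 lower (20%, beside 7.17% of all genes), with a median of -0.01. In all, 9 were called without SA replicate 1, and 3 without SA replicate 2, V replicate 1 or V replicate 3. HMOX1, haem oxygenase, fell, with 134, 137 and 138 CPM in V and 97.7, 97.2 and 104 CPM in SA (log2 fold change -0.45 ± 0.06, adjusted p = 3.28e-06), and so did the aldo-keto reductase AKR1C2 (log2 fold change -0.28 ± 0.05, adjusted p = 0.00025), whose reads can be shared with its close paralogs. FTL, the ferritin light chain, measured 4590.4, 4850.2 and 4619 CPM in V and 5076, 5775 and 5563 CPM in SA. FTL rose by 0.22 ± 0.05 on the log2 scale (adjusted p = 0.00312). The transaldolase TALDO1 (0.19) and the efflux pump ABCC3 (-0.17) lost their calls without any library other than SA replicate 1. Of 31 drug-metabolising enzymes 20 were tested, 1 called higher and 4 lower. CYP24A1, which inactivates vitamin D, measured 1179.8, 1116 and 1188 CPM in V and 855, 799 and 765 CPM in SA. CYP24A1 fell by 0.53 ± 0.05 on the log2 scale (adjusted p = 1.44e-08). ALDH1A1, a retinal dehydrogenase, measured 4312, 4239 and 4384 CPM in V and 3397, 3547 and 3403 CPM in SA. ALDH1A1 fell by 0.33 ± 0.04 on the log2 scale (adjusted p = 4.64e-06). SULT2B1, a sterol sulphotransferase, and CYP4F3, a leukotriene hydroxylase, were lower (log2 fold change -0.96 ± 0.16, adjusted p = 0.000287 and log2 fold change -0.61 ± 0.11, adjusted p = 0.000444), and CYP4F11, a neighbouring fatty acid hydroxylase, was higher (log2 fold change 1.12 ± 0.26, adjusted p = 0.00627), without a call when V replicate 1 was left out.

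Of 20 sterol synthesis genes all were tested and 1 called (5.00%, beside 7.17% of all genes), HMGCS1, lower in SA (log2 fold change -0.23 ± 0.05, adjusted p = 0.00879), with 0 called without V replicate 3 and 2 without SA replicate 1. Of 12 fatty acid synthesis genes 11 were tested and 2 called (18.2%), FASN, the fatty acid synthase, lower (log2 fold change -0.16 ± 0.04, adjusted p = 0.0204) and the elongase ELOVL6 higher (log2 fold change 0.23 ± 0.07, adjusted p = 0.0455). FASN lost its call without any library other than SA replicate 1, ELOVL6 without SA replicate 2, SA replicate 3, V replicate 1 or V replicate 3, and no member was called without 1 of these last 4 libraries.

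Cell cycle genes were read beside the 7.17% called over all genes. Of 38 DNA replication genes all were tested and 1 was called (2.63%), UHRF1, a maintenance methylation factor (log2 fold change 0.22 ± 0.06, adjusted p = 0.0249), with 0 called without SA replicate 2, SA replicate 3, V replicate 1 or V replicate 3 and 2 without V replicate 2. Of 34 mitotic genes, all tested, 1 was called higher and 2 lower (8.82%), with a median of 0.01. CDC25B, a phosphatase that activates CDK1, measured 473, 482 and 498 CPM in V and 534, 557 and 551 CPM in SA. CDC25B rose by 0.17 ± 0.05 on the log2 scale (adjusted p = 0.0184). MKI67, the proliferation marker Ki-67, measured 626, 617 and 622 CPM in V and 567, 548 and 544 CPM in SA. MKI67 fell by 0.18 ± 0.04 on the log2 scale (adjusted p = 0.0136). ECT2, an exchange factor of cytokinesis, measured 290.4, 289.8 and 296 CPM in V and 236, 253 and 259.8 CPM in SA. ECT2 fell by 0.23 ± 0.05 on the log2 scale (adjusted p = 0.00278). CDC25B lost its call without SA replicate 2, SA replicate 3, V replicate 1 or V replicate 2, MKI67 without the first 3 of these, and 1 mitotic gene was called without SA replicate 3 or V replicate 1. Of 17 clock genes, whose CLOCK and ARNTL proteins belong to the same protein family as AHR and ARNT, 14 were tested, 2 called higher and 1 lower (1 without SA replicate 2 or V replicate 1). NPAS2 (log2 fold change 0.21 ± 0.06, adjusted p = 0.0156) and BHLHE40 (log2 fold change 0.21 ± 0.05, adjusted p = 0.0143) were higher and PER2 (log2 fold change -0.34 ± 0.10, adjusted p = 0.0396) lower. NPAS2 lost its call without SA replicate 2 or V replicate 2, BHLHE40 without V replicate 1, and PER2 without any library other than V replicate 2.

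**Figure D5:**
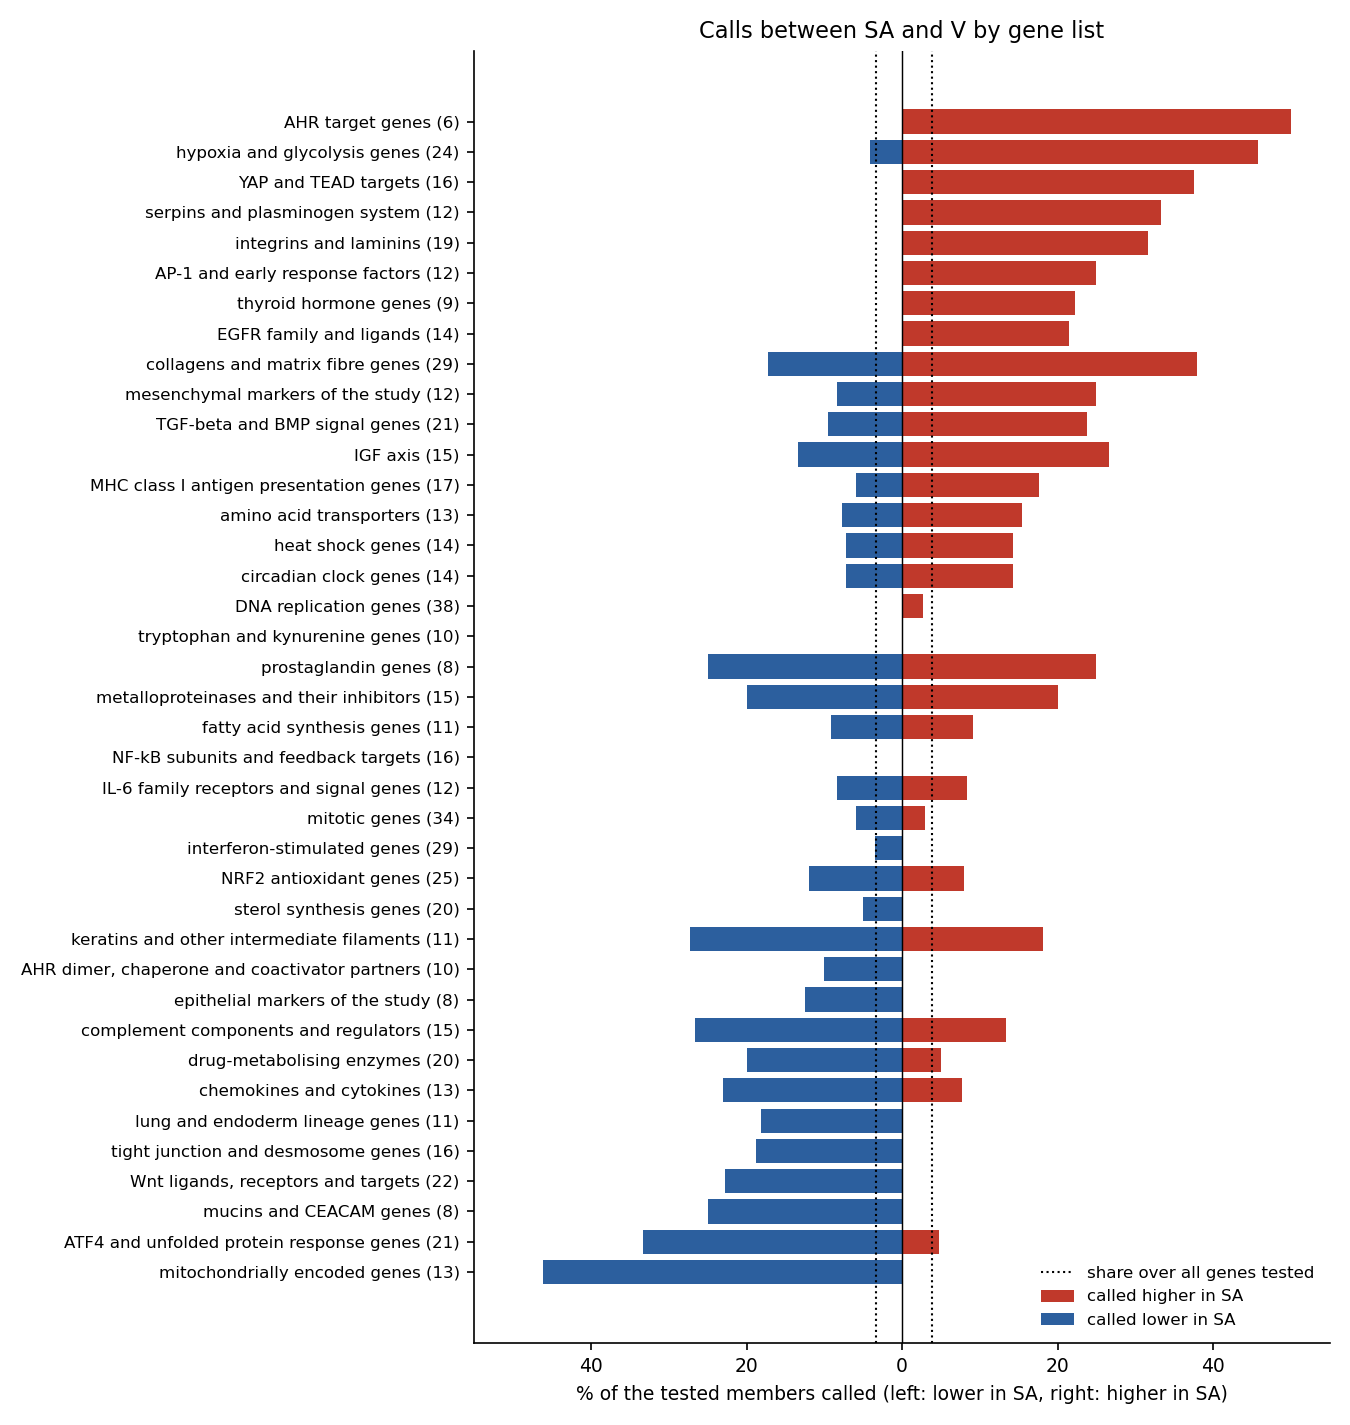
Percent of the tested members called higher (right, red) and lower (left, blue) in SA for gene lists with at least 6 tested members, whose number stands in brackets; dotted lines mark the shares over all genes tested, 3.88% higher and 3.29% lower. AHR targets, hypoxia and glycolysis genes and collagens and matrix fibre genes have the largest shares higher, and mitochondrially encoded and ATF4 genes the largest shares lower.

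Set against the lines with the other AHR constructs, SA differed in far fewer genes. Between SA and WT 12 of 14942 genes tested were called (0.0803%), 9 of them higher in SA, and between SA and SD 33 of 15030 (0.22%), 9 higher in SA. These comparisons share the 3 SA libraries with the comparison against V. The count against WT was 25 without SA replicate 1, 4 without WT replicate 1, 2 without WT replicate 2 and 6 without WT replicate 3. Against SD it was 11 without SA replicate 2, 16 without SA replicate 3, 19 without SD replicate 2 and 56 without SD replicate 3. For some of the genes named above the levels in the 3 AHR lines were as follows. FGB measured 1.65, 2.56 and 1.10 CPM in WT and 0.599, 0.429 and 1.97 CPM in SD (SA minus WT, -2.67 ± 0.56, adjusted p = 0.0686). ANPEP measured 62.9, 55.1 and 58.2 CPM in WT and 77.2, 65.9 and 75.0 CPM in SD (SA minus WT, 0.16 ± 0.07, adjusted p = 0.679). NTS measured 5.45, 5.66 and 4.75 CPM in WT and 3.69, 5.36 and 4.56 CPM in SD (SA minus WT, -0.43 ± 0.24, adjusted p = 0.712). CDH1 measured 116, 113 and 107 CPM in WT and 129.7, 132 and 117 CPM in SD (SA minus WT, 0.00 ± 0.06, adjusted p = 0.992; SA minus SD, -0.17 ± 0.07, adjusted p = 0.504). VIM measured 1309, 1289.6 and 1358 CPM in WT and 1175, 1223 and 1292 CPM in SD (SA minus WT, -0.01 ± 0.04, adjusted p = 0.973). A p above the threshold does not show that the lines were equal.

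Among the genes named by the rule for this comparison, the calls against WT were FOSL2 and DDIT4. FOSL2 measured 448, 447 and 451 CPM in SA and 384, 383 and 376 CPM in WT (SA minus WT, 0.23 ± 0.04, adjusted p = 0.0364). In SD, FOSL2 measured 498, 518 and 523 CPM, above each SA library but not called (SA minus SD, -0.20 ± 0.05, adjusted p = 0.175). DDIT4 measured 437, 429 and 458 CPM in SA and 365, 378 and 376 CPM in WT (SA minus WT, 0.24 ± 0.05, adjusted p = 0.038). In SD, DDIT4 measured 354, 380 and 427 CPM and was not called (SA minus SD, 0.19 ± 0.06, adjusted p = 0.361). Against SD the genes named by that rule and called higher in SA were the gene overlapping AHR (0.99 ± 0.09, adjusted p = 5.31e-06), CEACAM6, which measured 35.4, 30.2 and 28.3 CPM in SA and 18.1, 15.54 and 17.7 CPM in SD (0.86 ± 0.11, adjusted p = 0.000594), and CPLX2 (0.30 ± 0.06, adjusted p = 0.0295). Those called lower in SA than in SD included DIO2, FBN1 and MMP2. DIO2 measured 14.8, 13.9 and 14.9 CPM in SA and 22.4, 21.5 and 23.6 CPM in SD (SA minus SD, -0.64 ± 0.11, adjusted p = 0.0126). FBN1 measured 58.9, 50.3 and 54.1 CPM in SA and 83.6, 75.9 and 73.3 CPM in SD (SA minus SD, -0.52 ± 0.08, adjusted p = 0.00323). MMP2 measured 17.7, 14.3 and 15.8 CPM in SA and 25.2, 23.6 and 24.8 CPM in SD (SA minus SD, -0.63 ± 0.11, adjusted p = 0.0154). PTGS2 (-0.53 ± 0.09, adjusted p = 0.0063), FBN2 (-0.54 ± 0.09, adjusted p = 0.00557), CXCL5 (-0.28 ± 0.05, adjusted p = 0.026) and VCAN (-1.95 ± 0.35, adjusted p = 0.0161) were also lower in SA than in SD. In the plot of levels in the 4 lines, CDH1 is lower in each of the 9 libraries with an AHR construct than in each V library.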

How the data were processed

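RNA from 12 A549 libraries (3 each of V, WT, SA and SD) was sequenced after poly-A enrichment. Per the labels and the study's methods, the authors trimmed reads with Trimmomatic 0.39 and counted them with RSEM on GRCh38 transcripts, and they deposited expected counts per gene, 1 column per library. RSEM divides shared reads between overlapping genes by an estimate. A second deposited table held only the authors' fold changes and p-values and was not used. Expected counts were rounded, filtered with filterByExpr (minimum count 10), normalized with TMM and tested with the quasi-likelihood test of edgeR 4.0.16 in R 4.3.3 on the libraries of each comparison. P-values were adjusted by Benjamini-Hochberg over all genes tested, a call is an adjusted p under 0.05, and ± after a log2 fold change is its standard error (n = 3 per line). Library totals bound the precision: 3 counts equalled 0.255 to 0.320 CPM in SA and V. Alternatives were other filters, DESeq2 1.42.0 and its size factors, edgeR's exact test, 1 fit over 12 libraries, a replicate block and each library left out. The fits were tested on simulated data. Named genes were AHR and any gene overlapping it, the 15 largest rises and falls at 2 CPM or more without overlap, the 10 smallest adjusted p-values, up to 5 called members of each of 42 lists (2 members where none was called) and genes of the study. The comparison and the lists were chosen with earlier results of these data known. Promoter sequences came from RefSeq (GRCh38.p14). Some genes and 1 list are not reported here.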

Additional observations from a re-analysis of the deposited data

How the results depend on the processing

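The SA against V calls numbered 1209 with every gene of at least 1 count, 1167 with at least 10 counts in every library, 1070 with DESeq2 size factors, 835 by DESeq2, 1223 by the exact test and 922 in 1 fit over the 12 libraries, beside 1069. With single libraries left out they ranged from 621 (without V replicate 1) to 1195 (without SA replicate 1), those higher in SA from 319 to 641 and those lower from 302 to 554. The AHR sum kept its call throughout. Against WT, 12 calls became 103 with every gene of at least 1 count and 2 to 25 with single libraries left out. Against SD, 33 became 153 and 11 to 56. The cause was not tested. With the replicate number as a block the calls were 1345 against V, 25 against WT and 165 against SD. The correlations of deviations of same-numbered SA and V libraries were 0.093, -0.049 and 0.055, and the numbers were not taken to pair the samples. Among the V libraries, SA replicate 1 and SA replicate 3 correlated best with that of their own number. SA replicate 2 correlated best with V replicate 3 (0.045). Among the SD libraries, each SA library correlated best with the one of its own number (0.069, 0.050 and 0.064), a hint from the data and not the design. SA replicate 1 correlated more with V replicate 1 (0.093) than with any SD library. Of 165 called named genes, 107 kept their call in all 13 alternatives, 58 lost it in at least 1, and 0 reversed. DESeq2 did not call VCAN, PKP2, COL17A1, FOXC2, OAS1, MARK1, MUC5B, CD68, PER2, BAG3, TGFA, HSPA4L, ELOVL6, SERPINB9, DNAH10, MT-CO1, MT-CO2, MT-ND4 or MT-ATP6. The 12-library fit did not call VCAN, HSPB1, ABCC3, SLC38A2, BAG3, KRT80, RAB4B-EGLN2, MT-ND4 or UHRF1, and PER2 was not called with every gene of at least 1 count. Some uncalled genes changed sign with single libraries left out: THY1 ranged from -0.57 to 0.07 (log2), FBN1 from -0.010 to 0.13, SLC3A2 from -0.021 to 0.090 and TNFAIP2 from -0.047 to 0.016. Low counts limit the genes near 1 CPM, where single libraries decided several calls.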

Other observations

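FAM220A and ENSG00000286075 are annotated over almost the same stretch of chromosome 7, and their counts traded places between libraries. They were chosen after their values were seen. FAM220A measured 0, 0.212 and 26.0 CPM in V and 20.9, 18.8 and 24.5 CPM in SA, whereas ENSG00000286075 measured 23.0, 23.96 and 0 CPM in V and 1.20, 6.96 and 0 CPM in SA. In V replicate 3 and the SA libraries the counts stood mostly under FAM220A, and in V replicates 1 and 2 mostly under ENSG00000286075. FAM220A was not called against V (log2 fold change 1.29 ± 0.55, adjusted p = 0.175), and was called against WT (log2 fold change 5.86 ± 0.33, adjusted p = 6.94e-11) and against SD (4.81 ± 0.35, adjusted p = 1.01e-07) by edgeR. By the same test ENSG00000286075 was called the other way, lower in SA, against V (-2.49, adjusted p = 0.0235). It was also lower against WT (-3.02 ± 0.41, adjusted p = 0.00108) and SD (-2.70 ± 0.45, adjusted p = 0.00734). How the reads were divided between both genes was not tested.

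ENSG00000268173, on chromosome 19, was at 0 in the V, WT and SD libraries and measured 1.20, 1.72 and 6.65 CPM in SA. The gene, picked with its values known, passed the count filter through the SA libraries alone, so no test is given, and the SA libraries differed among themselves.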
